A study of Mus musculus with 2 samples.

Results

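Genes of 7 families of amino acid transporters were described in the gastrocnemius, a calf muscle, in 1 sample from mice whose PDGFRα-positive mesenchymal progenitors were depleted by design and 1 from control littermates. The members were all genes whose symbol in the annotation of the array's probes was Slc1a, Slc3a, Slc6a, Slc7a, Slc36a, Slc38a or Slc43a followed by a number. They numbered 58 of 19321 named genes and were read by 62 probes, with more than 1 probe for 4 of them. Slc43a1 was already known to have one of the highest ratios between these arrays when the set was drawn up. Its values, and the counts of higher and lower members that include it, are therefore a description of these arrays.

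The control genotype was wild type:R26-DTA and the depleted genotype Pdgfra-CreER:R26-DTA, so the diphtheria toxin A allele was in both and the Cre in 1 of them. The Pdgfra promoter drives CreER, a recombinase that works once tamoxifen is given and then lets the cell make the toxin, which kills it. Both came from females aged 10 weeks that received tamoxifen into the peritoneum for 5 days from 9 weeks of age, and their muscle was taken and frozen 2 days after tamoxifen ended. The study asked which genes change in muscle once these progenitors are depleted. Each group held 1 sample on 1 array, and the labels do not state the number of animals in it, so no value below has a replicate, no difference has a test, and the effect of depletion cannot be told apart from that of CreER, of the animal or of the array. In whole muscle, fewer cells of a type and less RNA per cell cannot be told apart either.

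Amino acid transporters are membrane proteins that move amino acids between blood, cytosol and lysosome. Skeletal muscle holds much of the body's amino acids, takes up leucine and its relatives for protein synthesis and oxidation, and releases glutamine and alanine. Most Slc7 light chains work as pairs with a heavy chain of Slc3. Most Slc1 and Slc38 proteins depend on sodium and several Slc36 proteins on protons, and LAT3 and LAT4 of Slc43 let amino acids pass down their gradient. Slc6 holds the carriers of neurotransmitters, taurine, creatine and neutral amino acids.

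Log2 ratios are depleted over control in normalized intensity. "Deposited values" are the authors' processed intensities, which are a straight line of each array's spot intensity with the level of the blank spots taken off. Background was judged from the blank spots: a probe was taken as above it if its spot was over their mean plus 2 SD, a limit of 37.4 intensity units in control and 38.5 in depleted muscle. The main setting adds an offset of 50 before the log, which draws the ratios of dim genes toward 0. The within-array spread is known from 2 positive controls spotted 24 times each, whose CV was 10.8% and 10.9% in control, against 7.62% and 6.59% in depleted muscle. In spot intensity as scanned, the log2 ratio of such a spot between the arrays had an SD of up to 0.15. This covers spotting and scanning only, not the spread between animals. The level of one probe cannot be set against that of another.

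The promoters of Slc43a1 and Slc3a2 are printed because the former had the highest ratio of any member and the latter encodes the partner that several light chains share. They cover the 250 bases before the start in RefSeq's annotation of GRCm38.p6, 5′ to 3′ on the gene's strand. Capitals mark CACGTG, the E-box core read by the clock and by lysosomal regulators.
Slc43a1 (chr2:84840073-84840322, + strand): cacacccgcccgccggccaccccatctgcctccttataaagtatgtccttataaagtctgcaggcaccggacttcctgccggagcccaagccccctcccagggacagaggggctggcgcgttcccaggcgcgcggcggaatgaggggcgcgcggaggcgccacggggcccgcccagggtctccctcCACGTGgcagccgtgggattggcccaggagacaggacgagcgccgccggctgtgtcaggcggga
Slc3a2 (chr19:8713898-8714147, - strand): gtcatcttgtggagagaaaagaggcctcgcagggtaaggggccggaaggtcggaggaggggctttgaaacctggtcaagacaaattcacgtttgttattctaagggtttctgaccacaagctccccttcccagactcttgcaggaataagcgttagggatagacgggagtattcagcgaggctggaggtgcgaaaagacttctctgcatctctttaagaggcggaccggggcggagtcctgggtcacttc
The Slc43a1 promoter had a GC content of 70.8% and 1 such match, which began 64 bases before the start, and that of Slc3a2 had a GC content of 53.6% and 0 matches. RefSeq promoters were matched for 41 of the 58 members, 58 promoters in all. Of these promoters 9 (15.5%) held CACGTG, against 6.02% of all 32851 promoters, and the 9 genes were Slc1a6, Slc1a7, Slc36a1, Slc38a5, Slc38a7, Slc43a1, Slc6a16, Slc6a3 and Slc7a14. The median GC content was 56.4% in the members' promoters and 52.4% in all. TGATGNAA, the core of the amino acid response element bound by ATF4, was in 1 member promoter (Slc7a11) against 3.45% of all promoters, and GTAAACA, the core bound by FoxO factors, in 2 (Slc36a3 and Slc7a11) against 3.17%. All 3 motifs were searched on both strands, and CACGTG reads the same on both. A match is a description of these letters and not of binding.

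The muscle itself and its other cells were checked by marker lists. Pdgfra, the marker of the targeted cells, had deposited values of 273.1 (control muscle) and 116.6 (depleted muscle), with a log2 ratio of -0.94, and all 13 measured mesenchymal markers were below 0, with a median of -1.06. Their deposited values summed to 24760 and 12110. Myofibre markers were bright on both arrays (sums of 421400 and 309500, median ratio -0.06). The sums are of deposited values, and the ratio is of quantile-normalized ones. That normalization gives both arrays the same distribution, which limits the ratios of the brightest probes. Macrophage markers had a median of 0.58, with all 12 above 0 (3453 and 7640), and the 6 erythroid markers read had a median of -2.30, all below 0 (33870 and 6050). Endothelial markers (2032 and 2375) had a median of 0.09 and Schwann and neural markers (259.5 and 276.4) one of 0.13. In these 6 lists 0 markers with a probe were below background on both arrays. The part of these cell types in the ratios of the transporters was not tested.

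Of the 58 members 56 were above background on at least 1 array, and 52 on both. Slc7a1, the main cationic amino acid transporter of many cells, and Slc7a9, a kidney light chain, were not well above background on either array. At least 2-fold differences were found for 2 members, Slc43a1 and Slc7a2, both higher in depleted muscle, and 0 members were at least 2-fold lower. Over all 18498 genes compared, 0.492% were higher by that much and 0.427% lower. With scaling to the median, 85.0% of the genes past 2-fold were higher, against 53.5% in the main setting. At 1.5-fold, Slc38a4 was the third higher member (3 of 56 against 1.96% of all genes), with 0 members lower (against 1.52%). The median member was at a log2 ratio of -0.01, and 26 members lay above 0 and 30 below it. These counts were 21 and 35 with scaling to the median, and 33 and 23 with the recorded local background subtracted.

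**Figure D1:**
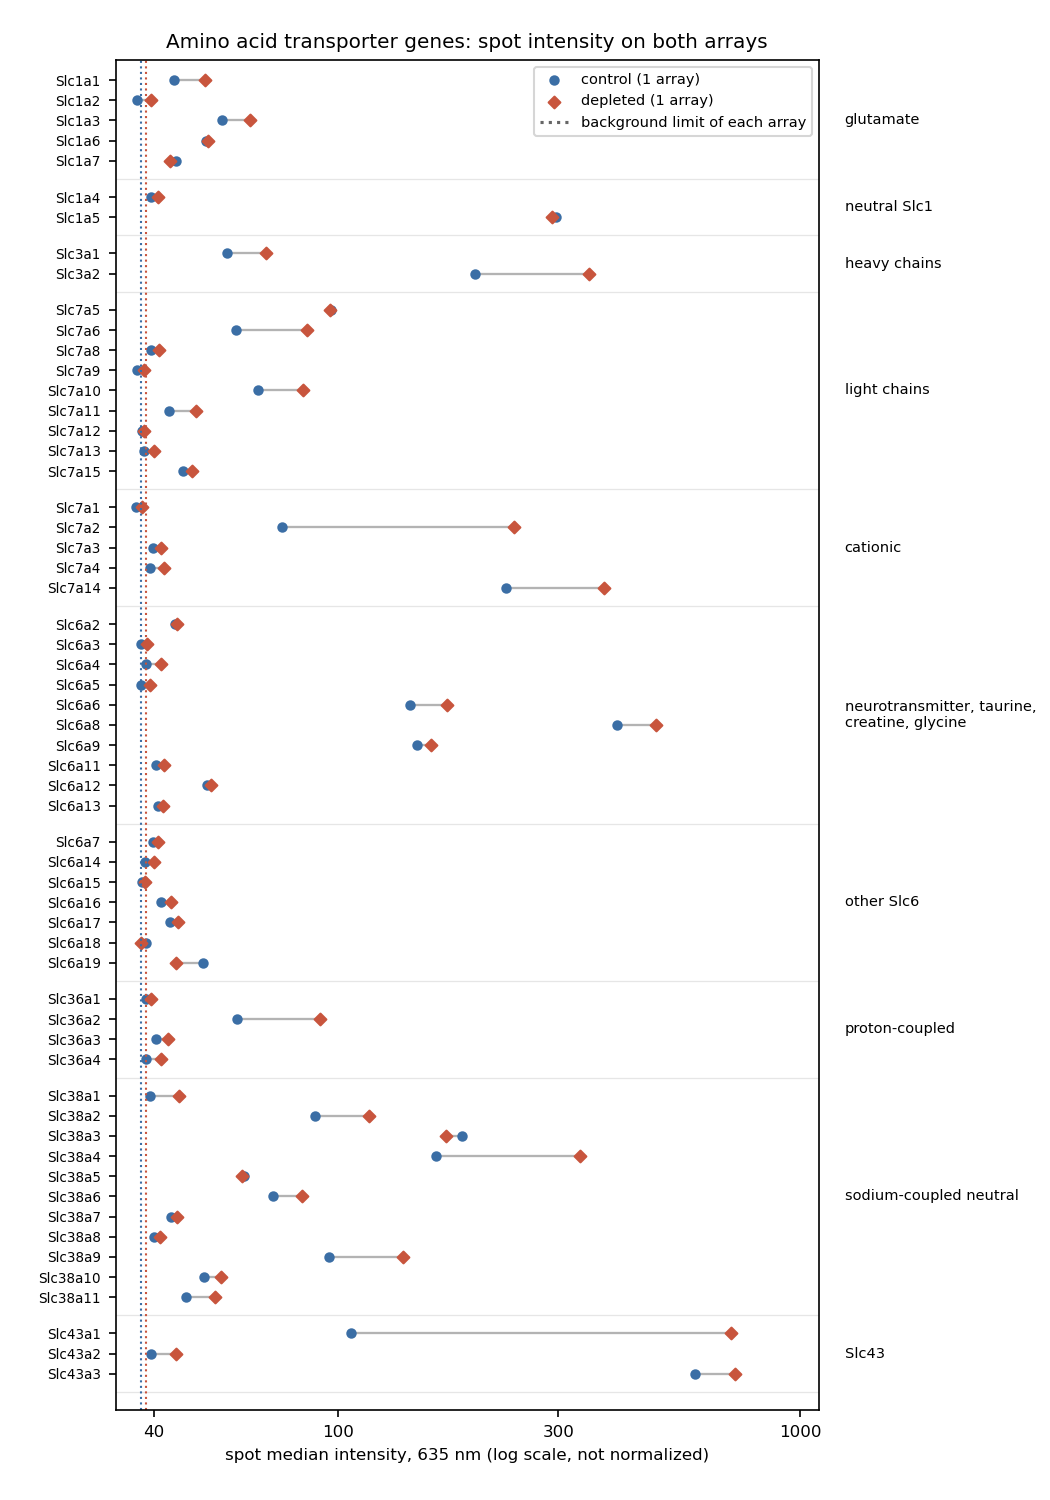
Spot median intensity of each member on the control array (circles) and the depleted array (diamonds), as scanned and not normalized, on a log axis, with 1 probe per gene and the members grouped by role. Dotted lines mark each array's background limit (37.4 and 38.5); many members sit close to them, while Slc43a1 (107 and 708) and Slc7a2 (75.5 and 241) have the widest gaps.

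The members differed in how well they could be read. Only 19 of 56 were at or above the median intensity of all genes, and 37 were below it. Intensity here was the higher of both arrays, so a gene could enter the brighter part through either array. Every gene at least 2-fold different lay in that part by construction, because the offset keeps dimmer genes from reaching 2-fold. In it 0.984% of 9249 genes were higher and 0.854% lower. Among the 19 brighter members 2 were at least 2-fold higher, and their median was 0.07, with 10 above 0 and 9 below (14 and 5 with scaling to the median, 15 and 4 with the local background subtracted). Beyond 2 SD of the positive control spots (a log2 ratio of 0.30), 4 of the 19 were higher and 2 lower. This too is common on these arrays, since 12.9% of the brighter genes were higher and 12.2% lower by that much. The SD came from spots without the offset or normalization, whereas these ratios had both. A ratio under 0.30 is therefore not shown to lie within that spread.

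Slc43a1 (probe M200004491), which encodes LAT3, a carrier of leucine, isoleucine, valine, phenylalanine and methionine, was 4.61-fold higher in depleted muscle. Its spot read 107 in control and 708 in depleted muscle, and its deposited values were 90.0 and 630.2, a 7.0-fold difference. With a log2 ratio of 2.20 it ranked 10 among the 18498 genes ordered from the highest ratio. The central 95% of the 500 genes closest in intensity ran from -0.77 to 0.65. The gene has 1 probe, so no other probe of it was read.

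Several values around that spot bear on the reading. The scanner files give each spot a background median, called local background here, and their headers do not say where around the spot it was measured. What a value with this background subtracted means is limited by that. For Slc43a1 it was 81.0 on the control array, or 75.7% of the spot, and 703 on the depleted array, or 99.2% of the spot. The median probe had a local background of 78.8% and 80.8% of its spot, and 1.64% of probes on the depleted array had a share as high as that of Slc43a1 or higher. With the local background subtracted, the log2 ratio of Slc43a1 was -2.15. The spots on either side of it in the same row, Zfp346 and Net1, had log2 ratios of 0.67 and 0.69, and the 3 adjoining spots of the next row were at 0.02, 0.00 and -0.25. Whether signal around the spot had a part in the difference was not tested. In the other 10 alternatives that gave it a value, Slc43a1 lay between 2.20 and 2.81. Of these, the 3 other filters for dim genes and the mean of a gene's probes left it at 2.20 by construction.

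The other members of this family did not share that size of difference. Slc43a2 encodes LAT4, a carrier of the same amino acids. Its probe was dim, with spots of 39.4 and 44.7, deposited values of 4.0 and 7.2 and a log2 ratio of 0.08. Slc43a3, which carries purine nucleobases, had the brightest probe, with spots of 594 and 725, deposited values of 709.4 (control muscle) and 645.3 (depleted muscle) and a log2 ratio of -0.15. Scaling to the median put Slc43a3 at 0.15.

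**Figure D2:**
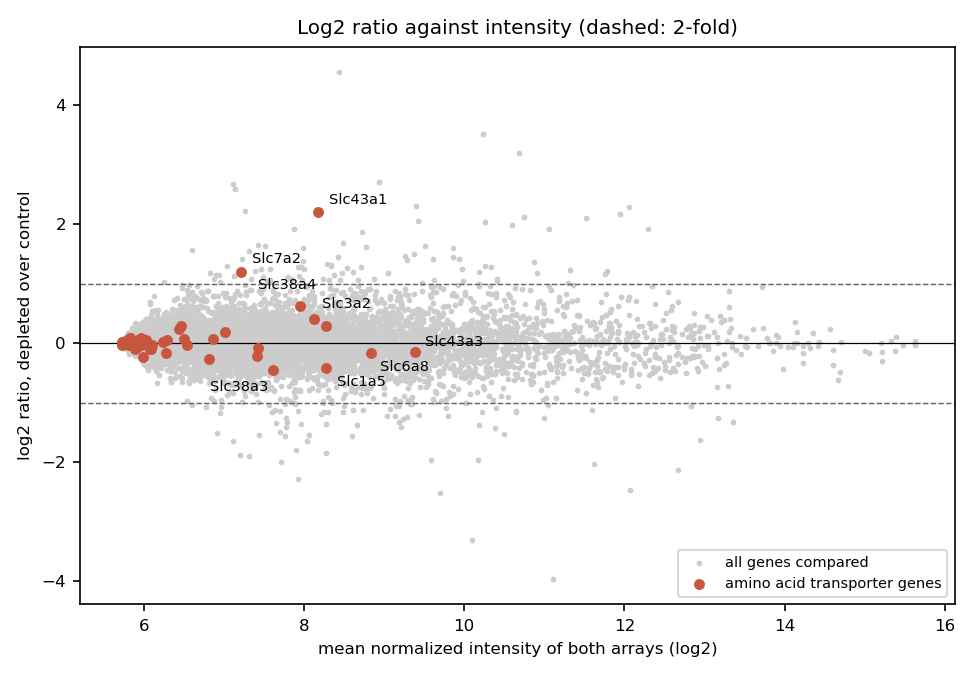
Log2 ratio, depleted over control, against the mean normalized intensity of both arrays (log2) for all genes compared (grey) and the members (red), with dashed lines at 2-fold. Slc43a1 (2.20) and Slc7a2 (1.20) lie above the upper line, and the dim members at the left lie close to 0, where the offset also holds other dim genes.

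Slc7a2 (probe M400001388) encodes CAT2, which takes up arginine, lysine and ornithine. Its spot read 75.5 in control and 241 in depleted muscle, and its deposited values were 50 and 191.1, a 3.82-fold difference. It was 2.31-fold higher in the main setting, with a log2 ratio of 1.20, against a central 95% from -0.53 to 0.57 for genes of like intensity. Unlike the spot of Slc43a1, that of Slc7a2 stood clear of its local background on both arrays (44.8 and 69.2), and the ratio was 2.53 with the local background subtracted. Slc7a2 ranked 56 among all genes.

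The other members grouped with the cationic transporters were not near that size of difference. Slc7a14 was at 0.28, with spots of 231 and 377 and deposited values of 248.4 and 318.9. Slc7a3 and Slc7a4 were at -0.01 and 0.03 with deposited values under 5 (4.4 and 4.1 for Slc7a3, 3.7 and 4.8 for Slc7a4).

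Slc3a2 (probe M200001598) encodes the heavy chain 4F2hc or CD98, which brings several Slc7 light chains to the cell surface. Its spots read 198 and 350, its deposited values were 206.2 (control muscle) and 293.6 (depleted muscle), and it was 1.33-fold higher with a log2 ratio of 0.41, within the central 95% of genes as bright (from -0.66 to 0.73). The alternatives put it between 0.35 and 0.65. Slc3a1, the heavy chain rBAT of kidney and gut, was at 0.06 by its brighter probe and at -0.04 by its dimmer one.

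The light chains lay on both sides of 0. Slc7a5 encodes LAT1, the exchanger of large neutral amino acids and partner of 4F2hc. Its spots read 96.7 and 96.2, and after normalization it was at -0.26, with deposited values of 76.9 (control muscle) and 55.6 (depleted muscle). Slc7a6, which encodes y+LAT2, was at 0.23, with deposited values of 30.6 and 45.9. Slc7a10, a carrier of small neutral amino acids, was at 0.07, with deposited values of 39.5 and 44.2. The cystine and glutamate exchanger Slc7a11 was dim, at 0.06 by its brighter probe (deposited 8.8 and 11.5), while the dimmer one was not above background in depleted muscle. Slc7a8, Slc7a12, Slc7a13 and Slc7a15 lay between -0.04 and 0.01. Of the 8 light chains above background 4 were above 0 and 4 below, while scaling to the median gave 3 and 5 and subtraction of the local background 7 and 1. In the latter Slc7a5 was at 0.18.

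Sodium-coupled neutral transporters of Slc38 were on both sides of 0, with 5 members above and 6 below (6 and 5 with scaling to the median or with the local background subtracted) and a median of -0.02. Slc38a4 (probe M200011951), which encodes SNAT4, was 1.54-fold higher. Its spots read 163 and 334 and its deposited values were 160.8 and 279.0. Its log2 ratio of 0.62 lay within the central 95% of genes as bright (from -0.79 to 0.77), and the alternatives ran from 0.62 to 1.95. Slc38a3, which encodes SNAT3, a glutamine carrier, was 1.36-fold lower. Its spots read 186 and 171 and its deposited values 190.9 and 126.0. This log2 ratio of -0.45 was the lowest of any member in the main setting, and it was at 0.85 with the local background subtracted.

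Slc38a2 encodes SNAT2, which many cells make more of when amino acids run short. It was at 0.07, with deposited values of 67.4 and 75.0. Slc38a9, the lysosomal protein that passes the arginine signal to mTORC1, was at 0.19 (75.5 and 95). Slc38a5 was at -0.17 (33.5 and 23.4) and Slc38a6 at -0.03 (46.0 and 43.9). With the local background subtracted these 3 changed side, to -0.32 for Slc38a9, 0.5 for Slc38a5 and 0.83 for Slc38a6. Slc38a1, Slc38a7, Slc38a8, Slc38a10 and Slc38a11 were dim and lay between -0.05 and 0.09.

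In the Slc1 family the bright member was Slc1a5, which encodes ASCT2, an exchanger of glutamine and other neutral amino acids. It was 1.33-fold lower. Its spots read 296 and 291 and its deposited values 330.3 and 238.7. Its log2 ratio was -0.41, and -0.15 after scaling to the median. With the local background subtracted it was -3.71, where the local background of the depleted array was 285 beside a spot of 291. Slc1a4, its closest relative in function, was at -0.01 on a dim probe. The glutamate transporters Slc1a1, Slc1a2, Slc1a3, Slc1a6 and Slc1a7, known mainly from brain and retina, lay between -0.10 and 0.08, and the highest deposited value among them was 25.9, for Slc1a3. The 2 probes of Slc1a1 were at 0.08 and -0.02.

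The Slc6 carriers best read in muscle were those of creatine, taurine and glycine. The creatine transporter Slc6a8, which supplies the phosphocreatine store of the fibre, had spots of 402 and 489, deposited values of 465.0 and 424.1 and a log2 ratio of -0.16. The taurine transporter Slc6a6 had spots of 143 and 172, deposited values of 136.4 and 126.4 and a log2 ratio of -0.08. The glycine transporter Slc6a9 had spots of 148 and 159, deposited values of 142.3 and 114.8 and a log2 ratio of -0.22. All 3 read brighter in depleted muscle before normalization and lower after it in the main setting. Under scaling to the median Slc6a8 and Slc6a6 were at 0.15 and 0.11. Slc6a12 and Slc6a2, carriers of betaine and noradrenaline, were at -0.10 and -0.07. The other carriers of neurotransmitters, Slc6a3, Slc6a4, Slc6a5, Slc6a11 and Slc6a13, were dim and lay between -0.03 and 0.04.

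Slc6a19, the neutral amino acid transporter of kidney and gut, was dim as well, with spots of 51.0 and 44.6. It was at -0.24 in the main setting, and in deposited values it was 2.61-fold lower, from 18.8 to 7.2. Slc6a7, Slc6a14, Slc6a15, Slc6a16, Slc6a17 and Slc6a18 lay between -0.03 and 0.00. In the Slc36 family, Slc36a2, which carries glycine, alanine and proline, was at 0.29, with deposited values of 30.9 (control muscle) and 51.0 (depleted muscle). Slc36a1, Slc36a3 and Slc36a4 were dim, between -0.02 and 0.03.

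The authors' deposited values drew the dim members further apart. In them 3 members were at least 2-fold higher, Slc43a1, Slc7a2 and Slc38a1, and 1 was at least 2-fold lower, Slc6a19. Over all 18498 genes compared, with empty values set to the array's lowest, 2.83% were at least 2-fold higher and 1.87% lower. Of the 17969 genes with a deposited value on both arrays, 522 were higher and 355 lower by that much. Slc38a1 had deposited values of 3.8 and 7.7, a 2.03-fold difference that came from spots of 39.2 and 45.2. The SD of a blank spot was 0.581 and 0.778 intensity units. Of the 53 members with a deposited value on both arrays, 31 were under 20 on both, and 11 were above 100 on either.

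The members above background on only 1 array were Slc1a2 in depleted muscle and Slc6a15, Slc6a18 and Slc7a12 in control muscle. Their spots were 36.7 and 39.4 for Slc1a2, 37.6 and 38.2 for Slc6a15, 38.5 and 37.4 for Slc6a18 and 37.7 and 38.1 for Slc7a12, all close to the limits. The deposited values were empty and 2.3 for Slc1a2, 1.7 and 1.2 for Slc6a15, 2.8 and empty for Slc6a18 and 1.8 and empty for Slc7a12. Their log2 ratios, set against the lowest value above background, ran from -0.03 to 0.02.

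**Figure D3:**
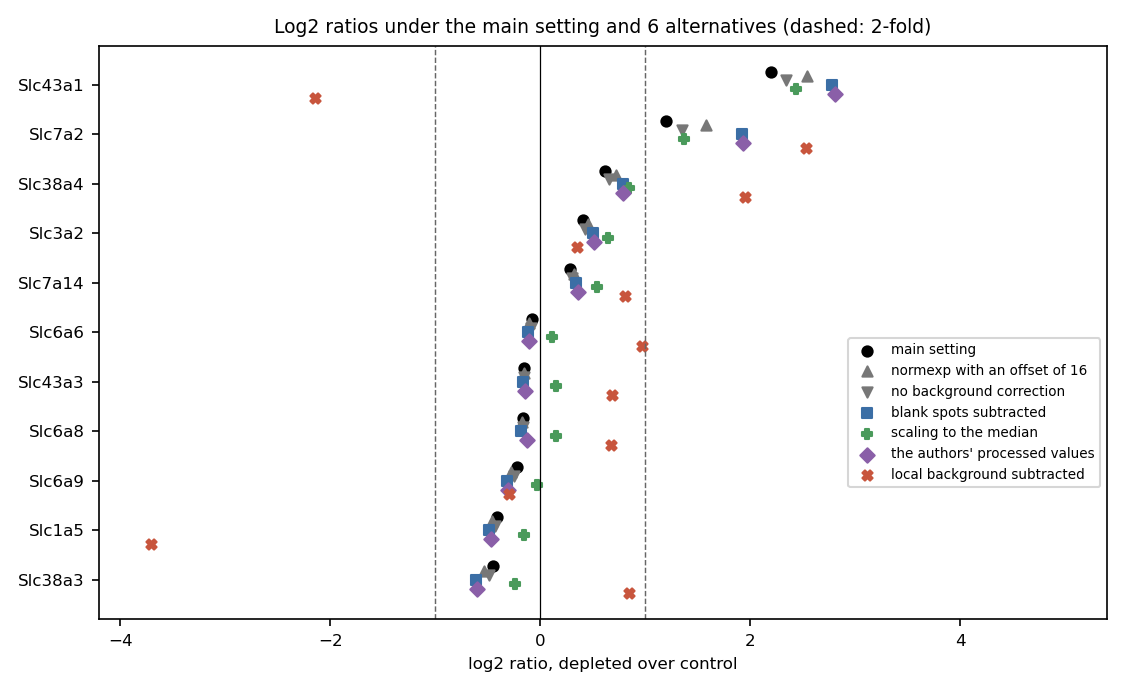
Log2 ratio, depleted over control, of 11 members under the main setting and 6 alternatives, with dashed lines at 2-fold. Slc7a2, Slc38a4, Slc3a2 and Slc7a14 lie above 0 in each, Slc43a1 lies at -2.15 with the local background subtracted and between 2.20 and 2.81 otherwise, and Slc43a3, Slc6a6 and Slc6a8 change side with scaling to the median and with the local background subtracted.

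Other genes of amino acid handling were read in 5 lists. The shares of all genes given beside their counts include dim genes. Among genes at or above the median intensity they were 0.984% higher and 0.854% lower. Transporters of other families, including the mitochondrial carriers, had 19 measured members with a median of 0.00, 1 at least 2-fold higher and 0 lower, where 0.492% of all genes were higher and 0.427% lower by that much. The higher one was Slc15a4, a lysosomal carrier of histidine and peptides, with deposited values of 68.2 and 242.2 and a log2 ratio of 1.25. The mitochondrial carriers Slc25a38 and Slc25a12 were at 0.59 and -0.48. Branched-chain amino acid breakdown, which uses the substrates of LAT3, had 0 of 22 members at least 2-fold different in either direction and a median of 0.04. Klf15, a transcription factor that promotes this pathway, was at 0.63 and Bckdk, the kinase that holds it back, at -0.46. The list had 14 members above 0 and 7 below, and its enzymes lay on both sides, with Acadsb at 0.44 and Dld at -0.44. Of 13 enzymes of glutamine, alanine, aspartate and arginine, 1 was at least 2-fold higher and 0 lower, beside the same shares of all genes (0.492% and 0.427%), with a median of -0.01. Glul, the glutamine synthetase, was 2.74-fold higher, with deposited values of 344.3 and 1069.2 and a log2 ratio of 1.46 (0.69 with the local background subtracted). The aspartate aminotransferases Got1 and Got2 were at -0.40 and -0.34.

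The ATF4 list holds ATF4, the factor that raises several transporters when amino acids run short, and genes it controls. Of 21 measured members 4 were at least 2-fold higher and 0 lower, with a median of 0.07. The shares were 0.492% and 0.427% of all genes, and 0.984% and 0.854% of genes at or above the median intensity. The higher ones were Chac1 (2.11), Ppp1r15a (1.63), Ddit4 (1.39) and Vldlr (1.24), and Atf4 was at 0.60. In the whole list 15 members were above 0 and 6 below. Asns, Trib3 and Ddit3 were at 0.01, -0.03 and -0.09, and the lowest was Psph at -0.53. Vldlr was at -1.10 with the local background subtracted. Among 32 genes of amino acid sensing by mTORC1, 2 were at least 2-fold higher and 1 lower (0.492% and 0.427% of all genes), with a median of -0.01. Sesn1, a sestrin that restrains mTORC1, was at 1.61, Flcn, which acts on the Rag GTPases, at 1.02 (0.36 with the local background subtracted), and Deptor, an inhibitor of mTOR, at -1.37.

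**Figure D4:**
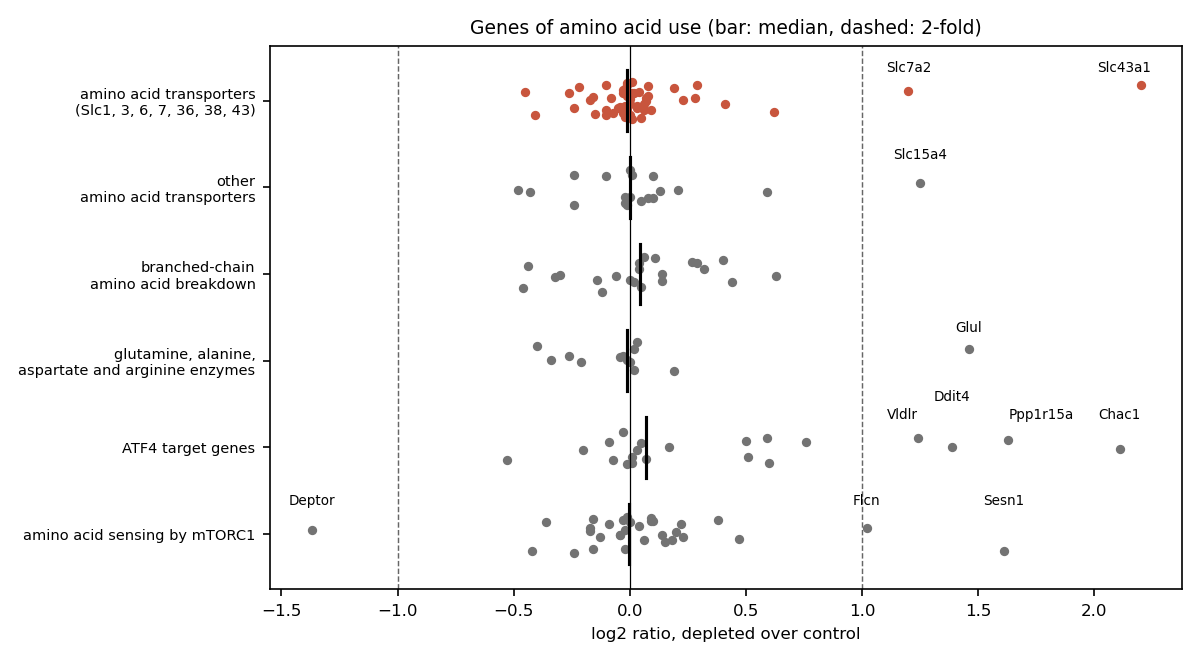
Log2 ratio, depleted over control, of the members (red) and of 5 lists of other genes of amino acid use (grey), 1 point per gene, with bars at each median and dashed lines at 2-fold. All 6 medians lie between -0.01 and 0.07, and the genes past 2-fold are named.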

How the data were processed

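RNA of 1 control and 1 depleted muscle was read on 1-colour arrays (Cy5). Per the file headers, the deposited scanner files hold each spot's median intensity at 635 nm, linear, combined from 3 gains, neither background-subtracted nor normalized. The authors' own processed intensity values were deposited as well; they follow each array's spots on a straight line, with slopes of 1.27 (control) and 0.939 (depleted). The genome build was not given in the sources used here. Spots were corrected with normexp (limma 3.58.1, R 4.3.3, offset 50), converted to log2 and quantile-normalized across the 23473 probes. Each gene was read by its brightest probe, and a value below background was raised to the array's lowest value above it where it was lower. Python 3.11.15, numpy 2.4.6, pandas 2.3.3 and matplotlib 3.10.9 were used. The script that counts genes past 2-fold was checked on simulated data, which is no test of the differences.

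All 62 member probes were matched by Entrez gene to RefSeq, with 0 symbols changed. Full values were given for members at least 1.5-fold different, for the 10 with the brightest probes and for those above background on only 1 array; the others are in ranges, with some values added for members of known role in muscle. Members, lists, marker lists, alternatives and rules were chosen with earlier results of these data known. The alternatives were an offset of 16, no correction, subtraction of the blank spots or of the local background, cyclic loess, median scaling, the authors' values, the mean of a gene's probes, 3 other filters for dim genes, and thresholds of 1.5-fold and 3-fold. The number of arrays limits the precision.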

Additional observations from a re-analysis of the deposited data

How the results depend on the processing

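No paired analysis was possible because only 1 array stood for each condition. The counts of members at least 2-fold higher and lower (2 and 0) were 7 and 4 with the local background subtracted. The blank spots subtracted and the authors' processed values each gave 3 higher members and 1 lower, and a 3-fold threshold left 1 higher member, by construction. With the local background subtracted the median member moved to 0.17 and Slc43a1 to -2.15. Over all genes, 91 higher and 79 lower became 163 and 117 with an offset of 16, and 503 and 360 under blank subtraction. The counts were 1940 and 2021 under local background subtraction, and 216 and 38 under median scaling. The authors' values, with empty ones filled, gave 523 and 345. They were 363 and 282 at 1.5-fold in the main setting, and 27 and 17 at 3-fold. The share of 2-fold genes that were higher was 53.5% in the main setting and 85.0% with scaling to the median. Of the other genes' values under the alternatives, 702 kept their side of 2-fold, 23 passed it, 2 (Glul and Flcn) fell under it, 2 (Slc6a15 at 1.34 and Slc7a8 at 1.5, with the local background subtracted) passed it on the other side of 0 and 1, Vldlr, reversed to -1.10 with the local background subtracted. The filters for dim genes, and for genes with 1 probe the mean of the probes, return the main value by construction and count among the 702. So do changes of sign short of 2-fold. With the local background subtracted, Slc38a3 went from -0.45 to 0.85 and Slc6a6 from -0.08 to 0.97. Where no construction is named, the cause was not tested. Signal over background limits the dim members: the median probe read 53.3 and 59.8 against limits of 37.4 and 38.5.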
